A study of Tupaia belangeri with 2 samples.

Results

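LHX1, LHX5 and LHX9 were taken by name from the annotation that comes with the deposited counts, where each is the name of 1 gene model (evm.model.chr16.93, evm.model.chr23.150 and evm.model.chr17.584). They are 3 of 23975 gene models. LIM homeobox genes encode transcription factors that carry a pair of zinc-binding LIM domains and a DNA-binding homeodomain, and they are best known for fixing which type of neuron a newly born cell becomes. LHX1 and LHX5 are close relatives that mark inhibitory neurons of the midbrain, hindbrain and spinal cord, and they also act in the Purkinje cells of the cerebellum and, for LHX5, in the Cajal-Retzius cells of the cortex. LHX9 marks excitatory neurons of the midbrain roof, the pretectum and the thalamus. The LIM domains work through adaptor proteins: LDB1 and LDB2 link LIM factors to one another, SSBP proteins stabilise the adaptors, the LMO proteins, which have LIM domains and no homeodomain, compete for them, and the ubiquitin ligase RLIM removes them.

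The data are the single-cell transcriptomes of whole brains of 2 tree shrew (Tupaia belangeri) embryos at 4 to 5 postconceptional weeks, freed of dura mater and vessels and dissociated with papain, each embryo giving 1 droplet library made with the 10x Chromium 3′ chemistry. Both embryos belong to the same single condition, so every comparison is between cell types, and n is 2 animals throughout. Values are unique molecular identifiers (UMIs, each marking 1 captured transcript), deposited as raw counts.

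Embryo 1 had 41868023 UMIs over 9241 barcodes and embryo 2 had 38077767 over 9685. The 17735 cells with at least 200 genes were kept, with medians of 3539 and 3169 UMIs per cell, and 18 barcode sequences occurred in both libraries. The cells formed 15 clusters, of which 11 could be named from marker lists. The GABA group held 5598 cells in a midbrain-type GABA-like cluster (markers GAD1, GAD2, GATA3, OTX2 and TFAP2B) and a forebrain-type GABA-like cluster (among its markers GAD1, GAD2, DLX2 and DLX5). The glutamatergic group held 4169 cells: the midbrain or thalamus glutamatergic-like cluster (SLC17A6, EBF3, SHOX2, TCF7L2, BARHL2 and POU4F2), the cortical glutamatergic-like cluster, and cluster 5, which stayed unnamed because midbrain or thalamus markers and granule neuron markers tied in it. The progenitor group held 3130 cells, 425 radial glia-like and 2705 dividing cell-like. Clusters 3 and 6, with 1656 and 1246 cells, matched radial glia best but stayed unnamed and outside the group, so most cells with a radial glia match are not in it. LHX1, LHX5, LHX9 and the other LIM homeobox genes were kept out of the genes used for clustering and naming. Haemoglobin transcripts made up 0.608% and 0.175% of the UMIs of GABA cells in embryos 1 and 2, 0.501% and 0.129% of glutamatergic cells, and 2.02% and 0.860% of progenitor cells. Without the 1861 cells that held at least 1% haemoglobin UMIs, the mean LHX1 level in GABA cells was 318.4 CPM (UMIs per 1000000 UMIs) against 318.6 with them, and that of LHX9 in glutamatergic cells was 127.6 against 127.7.

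LHX1 was the most counted of the 3 genes, with 1976 and 3348 UMIs in the cells of the 2 embryos, and at least 1 UMI in 2410 cells, up to 17 in 1 cell. Its level, in UMIs per 1000000 UMIs of the group (CPM), was 308.5 and 328.8 in GABA cells of embryos 1 and 2, 50.6 and 44.2 in glutamatergic cells, and 4.88 and 9.33 in progenitor cells. The 3 groups did not overlap between embryos, and 78.7% of all LHX1 UMIs lay in GABA cells. On the log2 scale LHX1 was lower in glutamatergic than in GABA cells by a change of -2.72 (SE 0.086, edgeR adjusted p = 1.6e-21). It was higher in GABA than in progenitor cells, by 5.28 (SE 0.12, edgeR adjusted p = 7.5e-27). LHX5 had 257 and 533 UMIs in the cells of the embryos, 675 cells with a UMI and at most 3 UMIs in a cell. Its level was 41.0 and 54.6 CPM in GABA cells, 5.60 and 6.24 CPM in glutamatergic cells, and 0.89 and 1.02 CPM in progenitor cells, where it rests on 8 UMIs in each embryo. The order of the groups was thus that of LHX1, again without overlap. Without the cells of highest Scrublet score, a measure of how far a cell resembles a doublet, the mean levels in progenitor cells fell from 7.11 to 3.78 CPM for LHX1, from 0.955 to 0.433 CPM for LHX5 and from 4.84 to 1.94 CPM for LHX9. LHX5 was lower in glutamatergic than in GABA cells by a log2 change of -2.98 (SE 0.15, edgeR adjusted p = 9.3e-17) and higher in GABA than in progenitor cells by 5.39 (SE 0.21, edgeR adjusted p = 2.7e-20).

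LHX9 ran the other way. It had 869 and 1428 UMIs in cells, 1372 cells with a UMI and at most 8 UMIs in a cell. Its level was 106.3 and 149.1 CPM in glutamatergic cells, which held 91.1% of its UMIs, 4.67 and 2.76 CPM in GABA cells, and 3.55 and 6.14 CPM in progenitor cells. The glutamatergic values stood far above the rest, while the ranges of the GABA and progenitor groups overlapped. LHX9 was higher in glutamatergic than in GABA cells by 5.29 on the log2 scale (SE 0.16, edgeR adjusted p = 4.9e-22) and higher than in progenitor cells by 4.53 (SE 0.14, edgeR adjusted p = 4.5e-23). The difference between GABA and progenitor cells was small, a log2 change of -0.76 (SE 0.29, edgeR adjusted p = 0.023), and it turned to 0.16 without embryo 2 and to -1.38 without embryo 1. It held in 4 of 13 other settings, and was 1.77 when groups were set from the transmitter genes of single cells. LHX9 UMIs were found in 0.838% and 0.616% of GABA cells and in 1.54% and 2.33% of progenitor cells. Erythroid-like cells, whose shares are given below, were far deeper, with medians of 12413 and 14273 UMIs. GABA cells had medians of 2170.5 and 2172 UMIs and progenitor cells of 4497 and 4722. These shares thus do not show whether LHX9 exceeded the background there. By CPM, erythroid-like cells were at 1.42 and 4.42. Haemoglobin made up 88.3% and 87.9% of their UMIs, which lowers the CPM of every other gene, so these values understate the background.

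All 3 genes were called between glutamatergic and GABA cells, where 26.9% of the 10747 genes tested were called (2894 genes; 1123 without the embryo as a block). Of all genes tested, 15% were higher in glutamatergic cells, as LHX9 was, and 11.9% were lower, as LHX1 and LHX5 were. The comparisons with progenitor cells called 64.3% of genes for GABA and 64.1% for glutamatergic cells, so a call there separates a gene little from the rest, and 31.4% and 32.4% of genes were higher in the neurons. In GABA cells 32.8% were lower than in progenitor cells, as LHX9 was. With the library totals in place of scaling factors the median gene moved by 0.24 and 0.20 on the log2 scale in these 2 comparisons, and the split of higher against lower calls went from 3376 and 3530 genes to 4509 and 2672 for GABA and from 3478 and 3407 to 4480 and 2635 for glutamatergic cells.

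**Figure D1:**
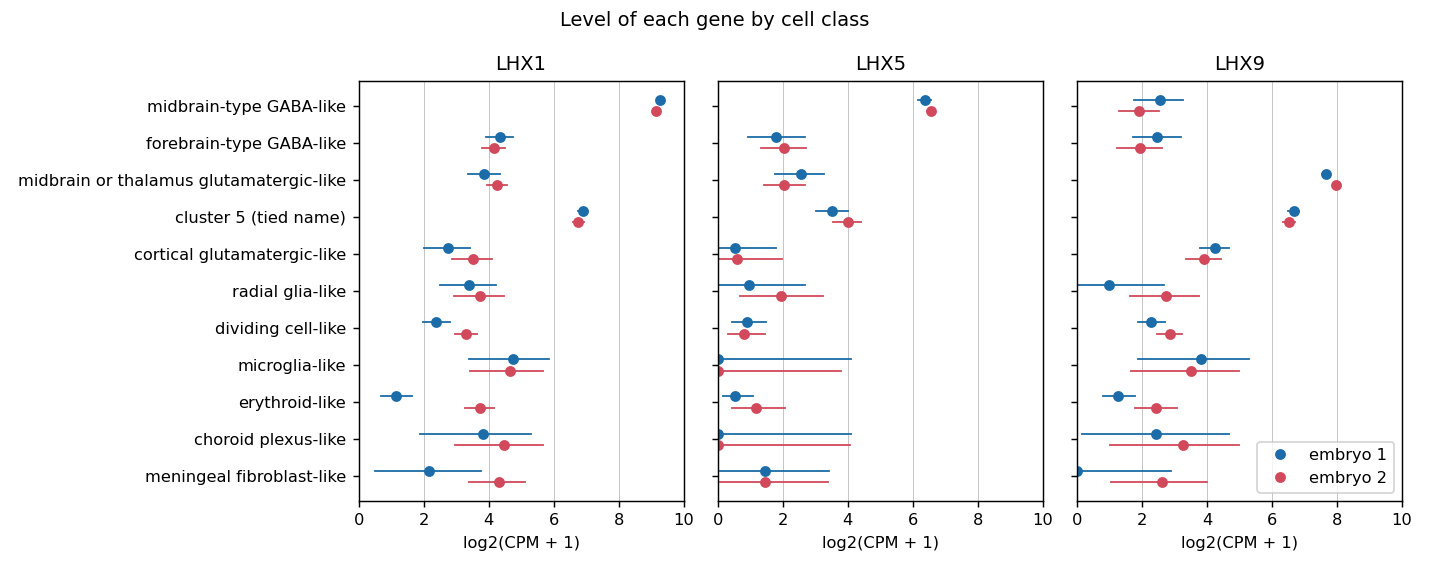
Level of LHX1, LHX5 and LHX9 in each cell class and in cluster 5, as log2(CPM + 1), with 1 dot per embryo and exact 95% Poisson intervals of the counts. LHX1 and LHX5 peak in midbrain-type GABA-like cells and LHX9 in midbrain or thalamus glutamatergic-like cells in both embryos, with cluster 5 next for all 3 genes.

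Within the GABA group, LHX1 and LHX5 were features of the midbrain-type GABA-like cells. This class took in 11.3% of cells in embryo 1 and 21.9% in embryo 2, and held 76.7% of the LHX1 UMIs and 79.7% of the LHX5 UMIs. LHX1 was at 614.9 CPM (95% Poisson interval 583 to 648) and 563.8 CPM (543 to 586) there, and at 19.4 and 17.1 CPM in forebrain-type GABA-like cells. LHX5 was at 81.7 CPM (70.4 to 94.3) and 93.4 CPM (84.9 to 103), against 2.47 and 3.08 CPM in the forebrain type. Neither gene overlapped between the 2 classes. The midbrain type was higher by a log2 change of 5.05 for LHX1 (SE 0.12) and 4.98 for LHX5 (SE 0.22), and edgeR called both; 11.7% of the 9035 genes tested were called higher in this comparison and 23.6% in either direction (2131 genes; 1198 without the block). LHX9 was at 4.81 and 2.74 CPM in the midbrain type and at 4.54 and 2.80 CPM in the forebrain type, a log2 change of -0.02 (SE 0.47, edgeR adjusted p = 0.98) in the comparison of these classes. Among cells with at least 1000 genes it was 1.60 (edgeR adjusted p = 0.047).

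Within the glutamatergic group, LHX9 was highest in midbrain or thalamus glutamatergic-like cells, at 202.1 CPM (184 to 221) and 249.7 CPM (235 to 265), and these cells held 65.2% of its UMIs. Cortical glutamatergic-like cells were at 17.9 and 14.0 CPM, from 41 and 27 UMIs. The difference was 3.69 on the log2 scale (SE 0.17) and was called by edgeR, as were 10.3% of genes in the same direction and 21.5% in either (1943 genes; 1172 without the block). The split of these calls was 934 higher and 1009 lower, and 1322 and 742 with library totals, under which the median gene moved by 0.11. For LHX1 and LHX5 the same comparison was less firm. LHX1 stood at 13.6 and 18.3 CPM in the midbrain or thalamus class and at 5.68 and 10.4 CPM in the cortical class (log2 change 0.98, SE 0.32, edgeR adjusted p = 0.024). LHX5 stood at 4.83 and 3.13 CPM, against a single UMI per embryo in the cortical class (log2 change 2.76, SE 0.75, edgeR adjusted p = 0.0050). LHX1 lost its call without the block (edgeR adjusted p = 0.088), and both lost it when the cells were clustered at a resolution of 1.0. Among cells with at least 1000 genes LHX1 changed by -0.48 (edgeR adjusted p = 0.24) and LHX5 by 0.31 (edgeR adjusted p = 0.85).

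The midbrain or thalamus glutamatergic-like and the midbrain-type GABA-like classes were set against each other directly, as neurons of opposite transmitter. LHX9 was higher in the midbrain or thalamus glutamatergic-like cells than in midbrain-type GABA-like cells by 6.14 on the log2 scale (SE 0.21), whereas LHX1 changed by -5.07 (SE 0.12) and LHX5 by -4.49 (SE 0.20). The 3 differences were called by edgeR. Of the 9035 genes, 11.8% were called higher and 9.3% lower (1070 and 840 genes, or 828 and 1117 with library totals), 21.1% in all (1910 genes; 909 without the block).

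**Figure D2:**
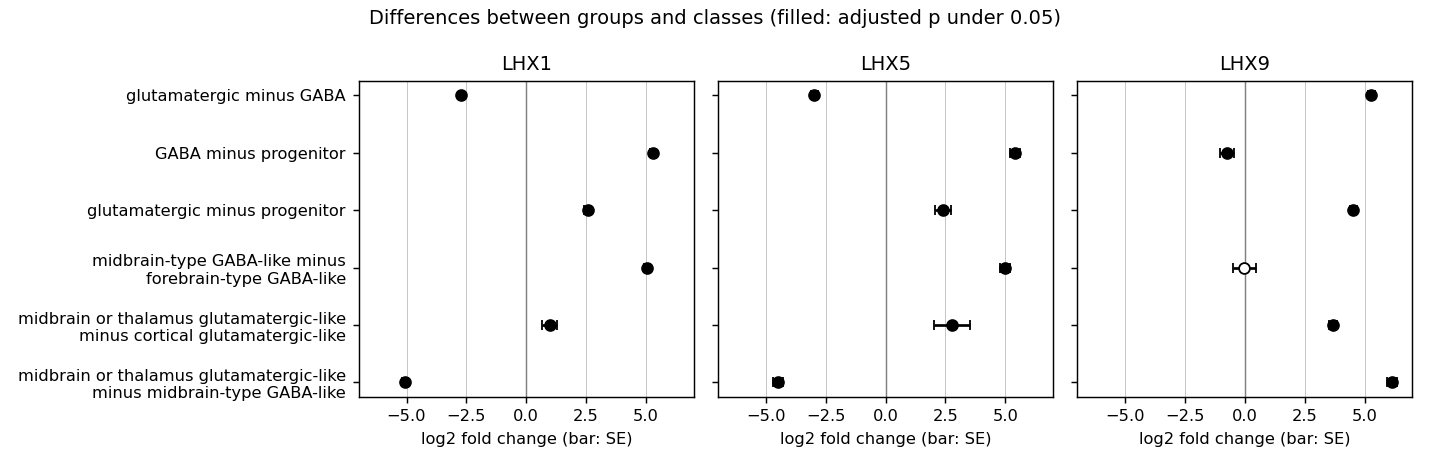
Fitted log2 fold changes of LHX1, LHX5 and LHX9 in the 6 comparisons, with bars of 1 SE, filled where the edgeR adjusted p passed 0.05. LHX1 and LHX5 take the same side in each comparison, and LHX9 takes the opposite one wherever glutamatergic cells meet GABA cells.

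Outside these classes the levels were low. In classes that hold few cells LHX1 rested on a handful of counts, such as 6 and 7 UMIs in microglia-like cells (25.9 and 24.2 CPM), found in 3 of 92 and 4 of 63 cells. Behind the midbrain-type class, the values of LHX1 in microglia-like and forebrain-type GABA-like cells did not overlap each other or the midbrain type, while those of the forebrain-type GABA-like, choroid plexus-like, midbrain or thalamus, meningeal, radial glia-like and cortical classes ran together. For LHX5 the order after the midbrain type was midbrain or thalamus glutamatergic-like and then forebrain-type GABA-like cells, and for LHX9 the cortical class and then microglia-like cells (13.0 and 10.4 CPM from 3 UMIs in each embryo) followed the midbrain or thalamus class. The LHX5 rank of the midbrain or thalamus class rests on 11 and 13 UMIs. In a finer partition described below, its main parts held LHX5 at 2.47 and 0.96 CPM and at 0 and 2.35 CPM. LHX5 had no UMI in microglia-like or choroid plexus-like cells.

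The shares of cells with at least 1 UMI followed the levels. LHX1 was found in 61.4% (95% Clopper-Pearson interval 58.2 to 64.5) and 57.7% (55.5 to 59.8) of midbrain-type GABA-like cells, and LHX5 in 17.1% (14.8 to 19.6) and 18.0% (16.3 to 19.7). LHX9 was found in 44.7% (40.7 to 48.8) and 52.1% (49.1 to 55.1) of midbrain or thalamus glutamatergic-like cells. Since these classes differed in depth, with medians of 2264 and 2176.5 UMIs against 3758 and 3697, the cells were also thinned to 1500 UMIs each, which left out 616 and 32 cells of the 2 classes. The shares were then 51.9% and 50.3% for LHX1, 11.2% and 12.2% for LHX5, and 24.4% and 31.7% for LHX9.

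Erythroid-like cells, which should lack all 3 genes, gave a background share: 1.28% and 5.11% of them held an LHX1 UMI, 0.512% and 1.28% an LHX5 UMI and 1.41% and 1.70% an LHX9 UMI, at medians of 12413 and 14273 UMIs. Haemoglobin transcripts made up 88.3% and 87.9% of the UMIs of erythroid-like cells, so a thinned cell of this class holds few other transcripts. This background was uneven. In the partition into 24 clusters, most erythroid-like cells (790) held 5 and 2 LHX1 UMIs (0.673 and 0.784 CPM), whereas a smaller cluster of 223, with 51 cells in embryo 2, held 6 and 37 (3.48 and 59.7 CPM).

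LHX9 lay below the background share in both embryos in midbrain-type GABA-like cells (0.630% and 0.587%) and in forebrain-type GABA-like cells (1.02% and 0.656%), which are shallower. Thinned to equal depth, the shares were 0.636% and 0.188% in the midbrain type and 0.508% and 0.247% in the forebrain type, against 0.437% of erythroid-like cells in embryo 2 and, in embryo 1, 0 of 759 cells, which allows a share of up to 0.395%. The thinned values were above those of erythroid-like cells in embryo 1 and below them in embryo 2, and rest on 3 to 5 cells each. Thinning discards most from the far deeper erythroid-like cells, so these shares do not show whether LHX9 exceeded the background. LHX9 in cortical glutamatergic-like cells, at 7.38% and 5.65%, lay above the erythroid-like background in both embryos. Thinned, at 3.68% and 2.90%, it did so too. By CPM it was at 17.9 and 14.0 there, beside 13.0 and 10.4 in microglia-like cells, with overlapping Poisson intervals.

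LHX1 lay above the background share in embryo 1 and below it in embryo 2 in forebrain-type GABA-like (3.72% and 2.76%), midbrain or thalamus glutamatergic-like (3.19% and 3.91%) and cortical glutamatergic-like cells (1.69% and 3.26%). The thinned shares were 2.41% and 1.24% in the forebrain type, 1.20% and 1.67% in the midbrain or thalamus class and 0.649% and 1.79% in the cortical class, against 0.527% and 1.31% of erythroid-like cells. The thinned shares of the last 2 classes were slightly above the erythroid-like ones in both embryos, and those of the forebrain type in embryo 1 alone. Thinning discards most from the far deeper erythroid-like cells, so it lowers their share more than those of the neurons. The background counts were 4 and 3 cells. Microglia-like cells, at 25.9 and 24.2 CPM of LHX1 from 6 and 7 UMIs, lay above all of these classes. These shares and levels thus do not show whether LHX1 exceeded the background in these classes.

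**Figure D3:**
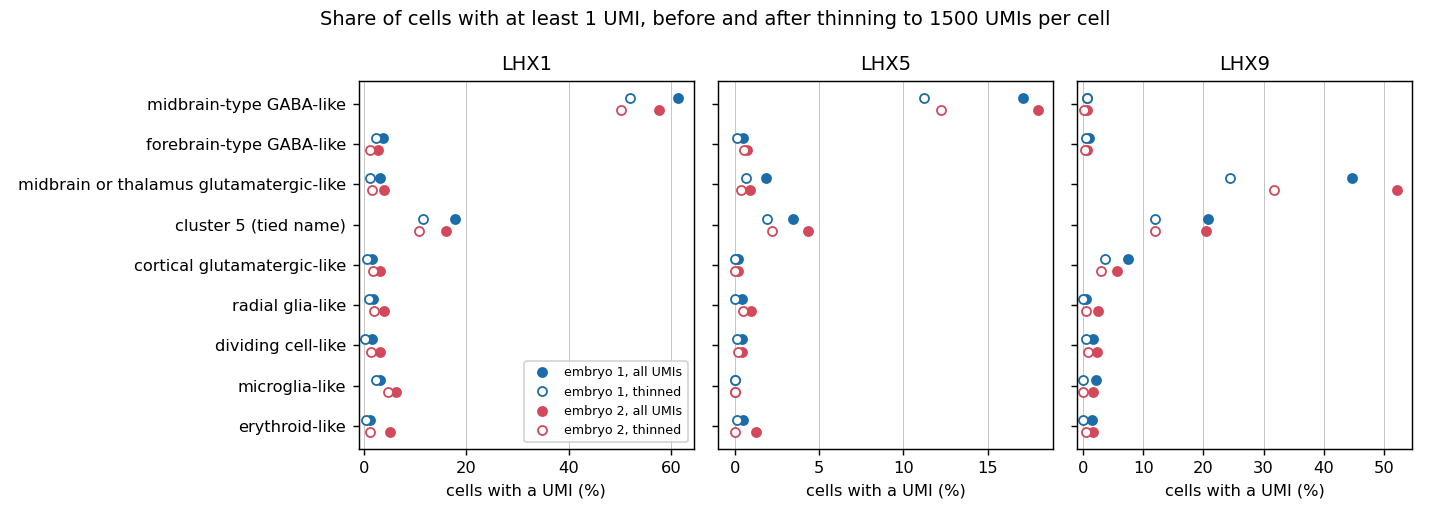
Percentage of cells with at least 1 UMI of each gene per class and embryo, with all UMIs (filled) and after thinning to 1500 UMIs per cell (open). After thinning, midbrain-type GABA-like cells stay highest for LHX1 and LHX5 and midbrain or thalamus glutamatergic-like cells for LHX9.

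The transmitter genes of single cells, GAD1, GAD2 and SLC32A1 for GABA and SLC17A6, SLC17A7 and SLC17A8 for glutamate, sorted the same way without any use of clusters. Of cells with an LHX1 UMI, 75.1% and 79.9% held UMIs of GABA genes only and 3.29% and 2.29% of glutamate transporter genes only. For LHX5 these shares were 74.7% and 86.8%, and 4.37% and 2.69%. Of cells with an LHX9 UMI, 5.65% and 7.49% held GABA genes only, 39.7% and 36.2% a glutamate transporter only, and 51.8% and 51.8% neither. Cells with LHX1 or LHX5 were thus mostly GABA gene-positive in both embryos. GABA genes only were held by 24.2% and 36.2% of cells without LHX1 and by 28.3% and 41.2% of cells without LHX5. Of cells without LHX9, 31.2% and 46.9% held GABA genes only, 6.02% and 6.10% a glutamate transporter only and 62.0% and 46.1% neither. Over all cells, the difference in the share with neither thus changed direction between the embryos. Among GABA, glutamatergic and progenitor cells alone, 50.1% and 51.0% of cells with LHX9 held neither, against 47.3% and 32.6% of cells without. Over all cells, those with LHX9 were deeper (medians 3942 and 3747 against 3492 and 3083 UMIs).

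LHX1 and LHX5 met in the same cells, LHX1 and LHX9 seldom. Over all cells, LHX1 was found in 58.1% and 61.0% of cells with LHX5, against 9.16% and 14.1% of the others. Within midbrain-type GABA-like cells alone the shares were 65.0% and 64.7% against 60.6% and 56.1%, and after thinning they were 45.5% and 57.4% against 52.7% and 49.3%, which differ in direction between the embryos. LHX9 showed the reverse: over the glutamatergic group, 2.84% and 2.50% of cells with LHX9 held LHX1, against 10.8% and 10.4% of cells without it, and 0.417% and 1.60% against 5.89% and 5.25% after thinning.

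Cluster 5 was the place where LHX1 and LHX9 were found side by side. Its 753 and 786 cells carried LHX1 at 118.4 and 107.5 CPM, LHX5 at 10.5 and 15 CPM and LHX9 at 100.6 and 91.4 CPM, the second highest level of each gene, with 11.6%, 8.86% and 22.9% of their UMIs. LHX1 was found in 17.8% and 16.0% of the cells and LHX9 in 20.7% and 20.4%, yet only 8 and 6 cells held both. LHX1 occurred in 5.13% and 3.75% of cells with LHX9 and in 21.1% and 19.2% of cells without it. After thinning the shares were 1.25% and 2.44% against 13.0% and 12%. LHX5 went with LHX1 here: 53.8% and 41.2% of cells with LHX5 held LHX1, against 16.5% and 14.9% of those without, from 14 cells with both in each embryo.

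The LHX1 cells of cluster 5 carried GABA genes although the cluster as a whole was grouped with the glutamatergic cells. GABA genes alone were found in 56.7% and 59.5% of cells with LHX1, against 25.04% and 26.2% of cells without, and a glutamate transporter alone in 14.9% and 14.3% against 31.7% and 29.2%. For cells with LHX9 the shares were 7.69% and 7.5% with GABA genes alone, against 36.7% and 37.7% of cells without, and 46.8% and 38.8% with a glutamate transporter alone, against 23.95% and 23.8%. Median UMIs were 3790.5 and 3517.5 in cells with LHX1 against 3365 and 3322.5 without, and 3670 and 3656 against 3327 and 3251 for LHX9. Cells with LHX1 and cells with LHX9 thus differed in transmitter genes in both embryos, in opposite directions.

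Levels of other transcription factors and neuron markers, described without a test, also differed between the cells of cluster 5 with LHX1 and those with LHX9. Cells with LHX1 held PCP4, a calmodulin-binding peptide abundant in Purkinje cells, at 212 and 227 CPM, against 9.87 and 25.8 CPM in cells without. RELN, the secreted guidance protein reelin, was at 214 and 174 CPM against 84.8 and 67.1, and the transcription factor EBF3 at 319 and 165 CPM against 84.3 and 63.1. The calcium-binding protein gene CALB1 was at 80.2 and 35.1 CPM against 19.3 and 13.8. PCP4 and CALB1 come from a Purkinje list that also holds SKOR2, ESRRB, RORA and FOXP2, and RELN from a Cajal-Retzius list with TP73 and CALB2. PCP4, CALB1 and RELN alone thus do not name these cells. Lower in cells with LHX1 were TCF7L2, a Wnt effector found in thalamic and pretectal neurons, at 611 and 550 CPM against 1502 and 1437, and the homeobox gene SHOX2, at 11.5 and 4.13 CPM against 65.0 and 53.8. In cells of cluster 5 with LHX9, TCF7L2 was at 2906 and 2455 CPM against 849 and 928, SHOX2 at 83.4 and 105 against 46.1 and 27.1, and the vesicular glutamate transporter gene SLC17A6 at 195 and 186 against 123 and 125. PCP4 was at 3.09 and 3.17 CPM in them, from 2 UMIs per embryo. The few cells with LHX5, 26 and 34, were high in RELN (430 and 222 CPM against 96.6 and 78.4) and in the cortical layer factor TBR1 (86.0 and 55.4 CPM against 10.6 and 15.8, from 9 and 8 UMIs).

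**Figure D4:**
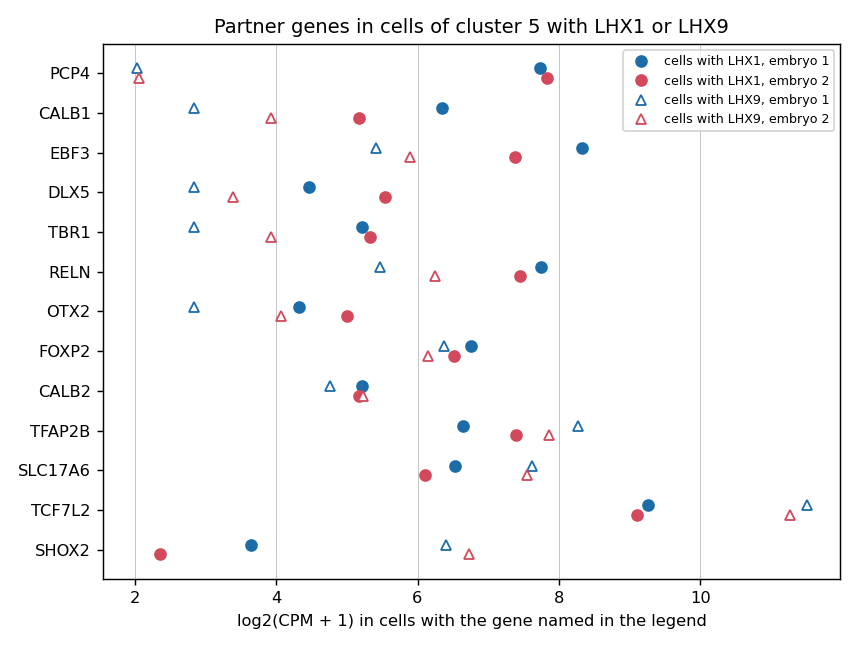
Level of 13 genes, as log2(CPM + 1), in the cells of cluster 5 with an LHX1 UMI (filled circles) and with an LHX9 UMI (open triangles), 1 symbol per embryo. Shown are listed genes with at least 10 UMIs in both embryos in cells with LHX1 or in cells with LHX9. A gene can thus be shown through the side where it is high, with few UMIs on the other. Genes run from those higher in LHX1 cells, led by PCP4, to those higher in LHX9 cells, ending with TCF7L2 and SHOX2.

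Because cluster 5 counts as glutamatergic, the values of LHX1 and LHX5 in that group rest on it. Without cluster 5 the log2 change from GABA to glutamatergic cells was -4.48 for LHX1 and -4.17 for LHX5, and the excess over progenitor cells fell to 0.78 and 1.20 from 2.56 (SE 0.15) and 2.41 (SE 0.32). A finer partition into 24 clusters split cluster 5 into 3 main parts. The largest, with 64.0% of its cells, was led by the neuropeptide gene SST (488 and 749 CPM) and held LHX1 at 154.6 and 137.1 CPM, LHX9 at 42.5 and 46.8 CPM and GAD2 at 435 and 465 CPM. The second, with 27.9%, was rich in TCF7L2 (3090 and 3323 CPM) and held LHX9 at 220.5 and 211.6 CPM and LHX1 at 8.2 and 10.1 CPM. The third, with 7.6%, held only 9 and 10 UMIs of LHX1 and 1 and 7 of LHX9, too few to compare the embryos. These levels are of whole finer clusters, and the largest also took in 82 cells of the midbrain or thalamus class. By the naming rule, the first and second parts were granule neuron-like, on ZIC1, ZIC2, CBLN1 and UNC5C and, in the second, ZIC4. The listed granule neuron markers ATOH1 and BARHL1 did not count for either. GAD2 in the first and TCF7L2 in the second are markers of other listed types, so the name does not settle what these cells are.

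The finer partition also divided the named classes. Midbrain-type GABA-like cells fell into an OTX2-richer part (51.5% of cells, OTX2 at 373 and 443 CPM) and a part rich in the AP-2 factor gene TFAP2B (48.3%, TFAP2B at 1583 and 1906 CPM against 114 and 195). LHX1 was near even between them, at 599.0 and 540.8 CPM in the first and 628.9 and 581.2 CPM in the second. LHX5 was higher in the first, at 99.7 and 126.7 CPM, than in the second, at 71.4 and 68.4 CPM. Midbrain or thalamus glutamatergic-like cells split into a part led by POU4F2 and TFAP2D (75.2%), with LHX9 at 257.0 and 306.8 CPM, and a part led by SHOX2, EBF2 and POU4F1 (19.8%), with LHX9 at 91.9 and 80.9 CPM and LHX1 at 23.5 and 23.5 CPM. These parts were found from the same cells and are described without a test.

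**Figure D5:**
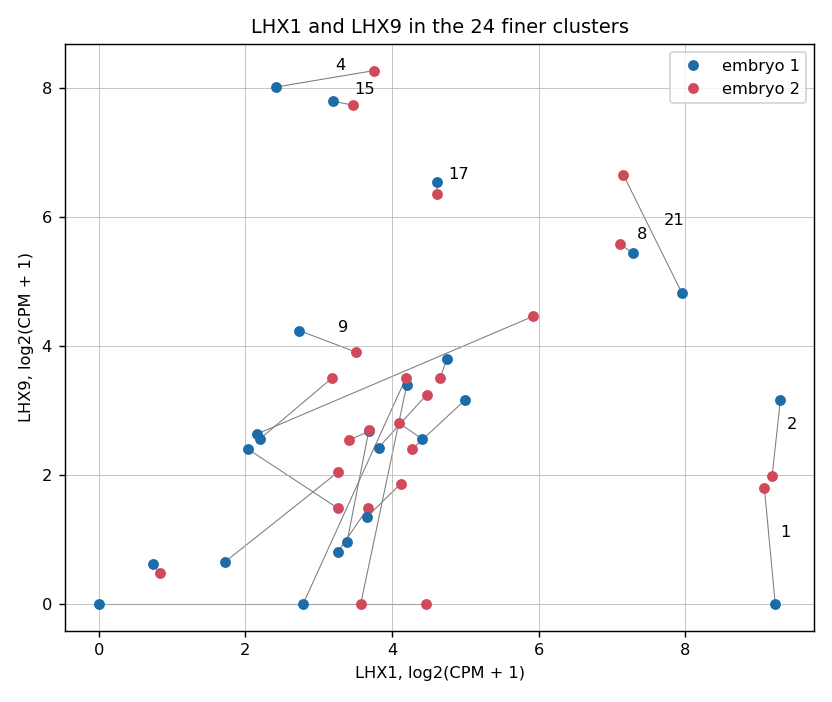
LHX1 against LHX9, both as log2(CPM + 1), in the 24 finer clusters, with the embryos of a cluster joined by a line. Clusters 1 and 2, from the midbrain-type GABA-like cells, are high in LHX1 alone, clusters 4, 15 and 17 are high in LHX9, and cluster 8, from cluster 5, holds both genes. Cluster 21 rests on 10 or fewer UMIs of each gene per embryo.

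Among midbrain-type GABA-like cells, those with an LHX1 UMI differed little from the others in GATA3 and TFAP2B, which are among the markers that named the class. GATA3, a zinc-finger transcription factor and a marker of this class, was at 74.9 and 86.1 CPM against 62.2 and 66.3. TFAP2B was at 999.5 and 1128 CPM against 1028 and 1268. PAX7, a factor of the dorsal midbrain, was lower in cells with LHX1, at 43.3 and 50.8 CPM against 71.7 and 73.6, and so was PCP4, at 9.7 and 13.5 CPM against 32.5 and 37.4. Midbrain-type GABA-like cells with LHX5 had less TFAP2B, at 722 and 935 CPM against 1075 and 1233, and OTX2 at 273 and 297 CPM against 234 and 282. These levels compare cells of the same embryo and have no test. Over the GABA group, cells with LHX1 were deeper (medians 2535 and 2502.5 against 2016 and 1947.5 UMIs). Some cells without an LHX1 UMI may have missed it, which would narrow such differences.

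Among midbrain or thalamus glutamatergic-like cells, those with LHX9 were richer in TCF7L2, at 1121 and 996 CPM against 622 and 508, in RELN, at 82.8 and 94.3 CPM against 45.6 and 51.9, and in the forkhead gene FOXP2, at 46.7 and 45.8 CPM against 20.8 and 23.1. Ratios of cells with LHX9 to cells without were 1.26 and 1.25 for SLC17A6 and 1.20 and 1.48 for the homeobox gene BARHL2. SHOX2, at ratios of 0.88 and 0.70, EBF3, at 0.73 and 0.83, and TFAP2A, at 0.39 and 0.44, were lower in both embryos. The 19 and 43 cells of this class with an LHX1 UMI held GABA genes alone in 42.1% and 32.6% of cases, against 6.08% and 5.58% of the rest. These few cells were deeper, with medians of 5243 and 4568 UMIs against 3738.5 and 3678.5, and more often held a UMI of a dividing gene, in 57.9% and 30.2% of cases against 32.5% and 20.9%.

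The genes whose levels over the 15 clusters were most like those of each member were ranked by Pearson's r of log2(CPM + 1), averaged over the embryos, among 9068 genes. This is a description: the clusters share 2 libraries, differ in depth, and many of these genes helped to form them. For LHX1 the nearest were GATA3 (r = 0.873), the adhesion molecule gene DSCAM (0.839), the ion channel gene ASIC4 (0.838), the prohormone convertase gene PCSK1 (0.835) and the homeobox gene UNCX (0.828). For LHX5 they were PCSK1 (0.913), UNCX (0.871), the cation channel gene TRPC4 (0.841), OLFM3 (0.835) and ADARB2 (0.827), a relative of the RNA-editing enzymes. LHX1 and LHX5 correlated at 0.813, which ranked LHX5 seventh for LHX1 and LHX1 eighth for LHX5. For LHX9 the nearest were TMEM163 (0.835), EBF2 (0.815), SLC17A6 (0.807), the AP-2 factor gene TFAP2D (0.804) and PACA (0.788), the annotation's name for the gene of the neuropeptide PACAP. LHX9 correlated at 0.275 with LHX1 and 0.152 with LHX5. UNCX, near to both LHX1 and LHX5, was at 102.7 and 146.7 CPM in midbrain-type GABA-like cells and at 3.3 and 3.6 CPM in the forebrain type. TFAP2D was at 399.8 and 430.0 CPM in midbrain or thalamus glutamatergic-like cells and at 21.8 and 55.5 CPM in cortical cells.

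Of the other LIM homeobox genes listed, 8 of 9 are named in the annotation and 3, LHX6, LHX8 and ISL1, had enough counts to be tested. These mark derivatives of the ganglionic eminences, and they stood opposite to LHX1 and LHX5 inside the GABA group. ISL1 was at 32.2 and 48.1 CPM in forebrain-type GABA-like cells and at 1.3 and 1.7 CPM in the midbrain type, a log2 change of -4.74 (SE 0.33) for midbrain minus forebrain. LHX8 was at 43.3 and 30.8 CPM against 0.4 and 0.6 (log2 change -5.81, SE 0.38), and LHX6 at 10.3 and 7.8 CPM against 0 and 0.2 (log2 change -5.61, SE 0.85). The median log2 change of these 3 genes was -5.61, beside 0.00 over all genes tested, and 11.8% of genes were called lower. ISL1 was not confined to the GABA group. The glutamatergic group held 35.3% of its UMIs, at 10.7 and 10.8 CPM (78 and 95 UMIs). Only 1 and 3 of these lay in the midbrain or thalamus class and 3 and 1 in the cortical class. Most thus lay in cluster 5, the second site of LHX1 and LHX5.

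The genes of the partner proteins changed by smaller amounts than LHX6, LHX8 and ISL1, but most were called. In midbrain-type against forebrain-type GABA-like cells, 3 of the 8 cofactor genes tested were higher and 3 were lower. Of all genes tested, 11.7% were called higher and 11.8% lower. The median log2 change of the cofactor genes was -0.07, with rises and falls offsetting each other. LMO1 was higher, at 83.5 and 154.5 CPM against 20.6 and 19.9 CPM (log2 change 2.63, SE 0.16), and so was the adaptor gene LDB2 (2.17, SE 0.54), while LMO3 (-0.95) and LMO4 (-1.06) were lower. The adaptor gene LDB1, at 23.6 and 21.9 CPM in the midbrain type and 30.1 and 24.1 CPM in the forebrain type, and RLIM, at 95.3 and 90.2 CPM and 93.6 and 87.8 CPM, were not called. LMO3 was the 1 cofactor called higher in midbrain or thalamus glutamatergic-like than in midbrain-type GABA-like cells, at 98.9 and 111.2 CPM against 14.4 and 10.5 CPM (log2 change 3.24, SE 0.17). Over LIM homeobox and cofactor genes together, 1 of 11 was higher and 5 were lower in glutamatergic than in GABA cells (1 and 3 without the block), where 15% of all genes tested were higher and 11.9% lower. In GABA cells 9 were higher and 0 lower than in progenitor cells (7 and 0), beside 31.4% and 32.8% of all genes, and in glutamatergic cells 8 were higher and 1 lower than in progenitor cells (6 and 0), beside 32.4% and 31.7%. Between midbrain or thalamus and cortical glutamatergic-like cells 4 were higher and 1 lower (2 and 0), beside 10.3% and 11.2%. Between the midbrain or thalamus glutamatergic-like and midbrain-type GABA-like classes 1 was higher and 3 lower (1 and 1), beside 11.8% and 9.3%.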

How the data were processed

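Whole-brain cells of 2 embryos were measured with 1 library each. The authors ran Cell Ranger 3.1.0 (cellranger count, default parameters) against the TS_2.0 assembly and deposited raw UMI counts per gene model and barcode, without normalization; the submitters' processing notes also name fastp and Seurat 3. The annotation gives no coordinates here, and none are printed.

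Cells with at least 200 genes were kept. Counts were scaled to 10000 per cell and log-transformed, and 2000 variable genes (no LIM homeobox gene), 20 principal components and a graph of 20 neighbours were used for Leiden clustering (leidenalg 0.10.2, resolution 0.5; Python 3.11.15, numpy 2.4.6, scipy 1.17.1, scikit-learn 1.9.0). A marker counted for a cluster when found in at least 10% of its cells at 2 times the level of the other cells, and a name needed 3 markers. Gene names that the annotation spells differently were matched through 6 aliases chosen after the files were seen, which changed no cluster's name. Scrublet (scanpy 1.11.5) called 0 and 1 cells, so doublets were kept, and leaving out the highest scores was an alternative.

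UMIs were summed per embryo and cell class and tested by the quasi-likelihood test of edgeR 4.0.16 (R 4.3.3; TMM, filterByExpr, embryo as a block because the sums of 1 embryo come from the same animal, Benjamini-Hochberg adjustment over all genes tested, threshold 0.05), in 1 fit over the 3 groups and 1 over 6 named classes. With this block, the tests measure how unevenly class differences repeat in 2 animals. The spread of a gene is estimated with information shared across all genes tested. The very small adjusted p-values rest largely on this shared estimate, not on the 2 animals for 1 gene. The common biological coefficient of variation was 0.039 in the group fit and 0.032 in the class fit. Differences shared by all classes of an animal are left out. The SE given with an edgeR log2 change was derived from its test. It is the absolute log2 change divided by the square root of the quasi-likelihood F statistic. Total counts were 38192755 and 35785697 in cells. Intervals are exact 95% Poisson or Clopper-Pearson intervals, the limit of a count of 0 is 3 counts, and both cover counting error only. In simulated data with 200 genes changed 4-fold, 93% were recovered between glutamatergic and GABA cells (10422 genes tested) and 90.5% between the GABA classes (8272 genes tested). False calls were 1.06% and 3.72% of those made. The simulation gave all groups 1 expression profile and 1 dispersion, without a difference between embryos. Its rates may thus not carry over to the real comparisons, where far more genes were called. The named genes are the 3 genes, a list of LIM homeobox and cofactor genes, a list of 44 partner genes, 36 of them found by name, and the 5 genes most similar to each member; of the lists, those that a result turns on are given. The members and lists were chosen with earlier results of these data known. Alternatives were DESeq2 1.42.0, RLE factors, library totals, no gene filter, no block, each embryo left out, at least 1000 genes, a resolution of 1.0, 30 components, the highest Scrublet scores left out, groups from single-cell transmitter genes, cells with at least 1% haemoglobin UMIs or with shared barcodes left out, means of the cells' own CPM and, chosen after the data were seen, cluster 5 left out and unnamed progenitors added.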

Additional observations from a re-analysis of the deposited data

Results flagged for a closer look

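Barcodes with under 200 genes took no part in the comparisons, and LHX1 and LHX9 were counted in them above the 3 counts that a count of 0 allows. In the 833 such barcodes of embryo 1, with 3675268 UMIs, LHX1 had 9 UMIs (2.45 CPM, 95% Poisson interval 1.12 to 4.65) and LHX9 had 5 UMIs (1.36 CPM, 0.442 to 3.17), and LHX5 had 1. In the 358 barcodes of embryo 2, with 2292070 UMIs, LHX1 had 3 UMIs and LHX5 and LHX9 had 0.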

How the results depend on the processing

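Of 255 fold changes recomputed under an alternative, 214 were counted as unchanged. Where the alternative has a test, this means the same direction and the same side of the threshold. With 1 embryo left out, it means a value within 1 SE of the main one. The fold changes of LHX1 between glutamatergic and GABA cells (-4.48 to -2.54) kept both in 13 of 13 alternatives, those of LHX9 (4.46 to 5.69) and LHX5 (-4.17 to -2.79) likewise, and those between midbrain-type and forebrain-type GABA-like cells in 11 of 11 for LHX1 (5.00 to 5.41) and LHX5 (4.47 to 5.41). The cause of the lost calls was not tested. With 1 embryo left out there is no test, since no residual spread remains.

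LHX1 between the midbrain or thalamus and the cortical glutamatergic-like class kept its call in 5 of 11 alternatives. It was 0.93 with DESeq2 (adjusted p = 0.068), 0.59 at a resolution of 1.0, 0.62 with 30 components, 0.84 without the highest Scrublet scores and -0.48 with at least 1000 genes. LHX5 kept it in 7 of 11, and was 2.90 with DESeq2 (adjusted p = 0.059), 1.44 at a resolution of 1.0, 1.57 with 30 components and 0.31 with at least 1000 genes. LHX9 between GABA and progenitor cells was -0.52 with library totals, -0.61 with DESeq2 (adjusted p = 0.39), -0.36 with at least 1000 genes, -0.38 at a resolution of 1.0, -0.64 with 30 components, -0.51 with unnamed radial glia-type clusters added to the progenitors, 0.23 without the highest Scrublet scores and 1.77 with groups set from single cells. LHX9 between the GABA classes was 1.60 with at least 1000 genes. With groups from single cells LHX5 between glutamatergic and progenitor cells was 2.02 (edgeR adjusted p = 0.18), from 177 progenitor cells.

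Without the embryo as a block, the genes called numbered 1123 between glutamatergic and GABA cells, 1172 between the midbrain or thalamus and cortical classes, 909 between the midbrain or thalamus class and midbrain-type GABA-like cells and 1198 between the GABA classes. In the same fits without the block LHX1 was 0.95 between the midbrain or thalamus and cortical classes, LHX9 was -0.68 between GABA and progenitor cells (edgeR adjusted p = 0.16) and LHX9 was 0.00032 between the GABA classes; no other call of the 3 genes changed. DESeq2 called 1179, 1232, 998 and 1163 genes in these 4 comparisons. Groups from single cells called 1550 genes between glutamatergic and GABA cells, 2840 between GABA and progenitor cells and 3152 between glutamatergic and progenitor cells, with LHX1 at 202.8 and LHX5 at 30.44 CPM in GABA cells.

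The shares moved with the count required. With at least 2 UMIs, LHX1 was in 18.9% and LHX5 in 1.42% of GABA cells and LHX9 in 12.4% of glutamatergic cells, and after thinning in 28.1%, 6.42% and 16.9%, from 32.5%, 9.45% and 28.7%. With each embryo left out in turn, LHX1 ran from 4.90 to 5.75 between GABA and progenitor cells, from -2.85 to -2.59 between glutamatergic and GABA cells, from 2.06 to 3.16 between glutamatergic and progenitor cells and from -5.45 to -4.85 between the midbrain or thalamus class and midbrain-type GABA-like cells, where LHX5 ran from -4.80 to -4.03 and LHX9 from 5.42 to 6.58. LHX9 ran from -1.38 to 0.16 between GABA and progenitor cells, from 4.52 to 5.79 between glutamatergic and GABA cells, from 3.35 to 4.07 between the midbrain or thalamus and cortical classes and from 4.41 to 4.69 between glutamatergic and progenitor cells. The values of LHX5 in progenitor cells rest on 8 UMIs per embryo.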
